A study of Mus musculus with 8 samples.

Results

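Actins and tropomyosins are the 2 protein families that form the core of every thin filament, and 10 of their genes were followed here on arrays of C2C12 muscle cells with and without added HDAC4. The genes were the striated actins Acta1 and Actc1, the smooth muscle actins Acta2 and Actg2, the cytoplasmic actins Actb and Actg1, and the tropomyosins Tpm1 to Tpm4. A probe counted as a member when the platform annotation gave it exactly 1 gene and that gene was on this list, which held for 17 of 31769 probes. They covered 8 of the 10 genes, with 7 actin and 10 tropomyosin probes. No such probe was found for Acta2 or Tpm4. The only probe for skeletal actin, M200013335, is listed under the symbol ACTA1 with a gene ID outside the mouse gene table, so 16 of the 17 member probes rest on a mouse ID.

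HDAC4 samples were C2C12 cells, a myoblast line of C3H mice, stably selected with a retrovirus carrying HDAC4, a class IIa histone deacetylase, together with the selection marker Neo. Neo samples were the same line selected with a Neo virus without HDAC4. No named probe reports Hdac4, so its level could not be used to check the labels. There were 4 arrays of each, and both kinds of cells had reached 90% confluence and spent 4 days in 2% horse serum, the medium in which they differentiate into myotubes. The labels do not say whether the 4 samples of a group were separate cultures or separate infections, so the spread on which each p-value rests may be purely technical. Cells were in the Cy5 channel and a murine reference RNA in the Cy3 channel of every array.

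In differentiating muscle, actin polymerises into thin filaments and tropomyosin lies along them, where it sets when myosin can bind. Myoblasts carry mainly cytoplasmic actins. As they fuse they switch on the cardiac gene Actc1 and the skeletal gene Acta1, which together build the sarcomere, and Acta2 appears for a time. Tpm1, Tpm2 and Tpm3 each give muscle and non-muscle forms through alternative promoters and exons, while Tpm4 serves mainly the non-muscle cytoskeleton in the mouse. Striated actin genes are classic targets of the serum response factor SRF, which binds a sequence known as the CArG box, and HDAC4 is best known as a repressor of the MEF2 factors.

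The upstream sequences of 3 of these genes are shown because striated and cytoplasmic actins share the SRF motif while differing in what they build. Each is the RefSeq window of GRCm38.p6 from 250 bases before to 50 bases after the gene's start, written 5′ to 3′ on the gene's strand, with the CArG box in capitals. The Acta1 window is chr8:123894726-123895025 (minus strand), that of Actc1 is chr2:114052826-114053125 (minus strand) and that of Actg1 is chr11:120348446-120348745 (minus strand).
Acta1: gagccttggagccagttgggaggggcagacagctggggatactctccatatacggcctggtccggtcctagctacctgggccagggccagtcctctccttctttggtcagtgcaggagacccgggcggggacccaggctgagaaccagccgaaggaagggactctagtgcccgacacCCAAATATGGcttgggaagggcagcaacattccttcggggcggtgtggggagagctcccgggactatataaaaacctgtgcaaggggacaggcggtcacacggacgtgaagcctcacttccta
Actc1: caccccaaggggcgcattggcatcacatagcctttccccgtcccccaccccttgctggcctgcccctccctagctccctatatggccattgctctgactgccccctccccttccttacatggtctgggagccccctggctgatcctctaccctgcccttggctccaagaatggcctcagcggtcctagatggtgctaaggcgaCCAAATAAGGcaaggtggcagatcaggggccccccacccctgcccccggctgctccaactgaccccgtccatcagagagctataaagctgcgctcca
Actg1: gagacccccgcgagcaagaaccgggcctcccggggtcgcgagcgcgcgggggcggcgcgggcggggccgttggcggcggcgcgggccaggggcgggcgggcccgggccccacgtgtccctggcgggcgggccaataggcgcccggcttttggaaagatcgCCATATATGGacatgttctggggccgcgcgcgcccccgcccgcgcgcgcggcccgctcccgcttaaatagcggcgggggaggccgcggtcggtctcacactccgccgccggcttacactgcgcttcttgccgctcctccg
The box begins 73 bases before the start in Acta1, 47 in Actc1 and 90 in Actg1. Windows were found for 8 of the 10 genes, 9 windows in all, since Tpm3 has more than 1. These 3 were the windows that held an exact match to the CArG box. It was taken as CC, then only A or T, then GG, 10 letters that read the same on both strands. Sequences a letter away were not counted, such as ccctatatgg in the Acta2 and Actc1 windows. A window without an exact match may therefore still hold a variant of the box. The exact motif was present in 1.63% of the 32851 windows of this length. The MEF2 site was searched for on both strands as well and was in none of the 9, against 3.19% of all windows. A match describes letters only and says nothing of binding in these cells.

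Depth and quality of the arrays bear on all that follows. HDAC4 arrays had between 17014 and 18521 probes with a value, against 19248 to 22193 on Neo arrays. The arrays numbered 1 in both groups stood apart: they correlated with each other across probes at 0.938 and with the other 6 arrays at 0.888 to 0.899, while those 6 correlated among themselves at 0.928 to 0.966. The difference of each member probe is therefore given with and without this pair. The direction of the ratio was read as cells over reference, which is likely because contractile genes lie far above 0, but the labels give only the dyes. Many high ratios become whole numbers when multiplied by 10, as they would if a weak reference had been raised to 10 units, and are called values at the reference floor. That floor is inferred. For a probe at the floor the ratio carries the signal of the cells alone. Outside the family, 202 probes were always at the floor, with a median HDAC4 minus Neo difference of -0.56 on the log2 scale, and the 38 of them with a mean log2 ratio above 6 had one of -0.25.

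None of the 16 member probes that could be tested passed the threshold for a difference between HDAC4 and Neo cells in the fit over all probes. The smallest adjusted p of the 16 was 0.775, in limma with Benjamini-Hochberg adjustment over 16748 probes, and none had an unadjusted p under 0.05. Across all tested probes 21 passed an adjusted p of 0.05, 0.125% of them, and 7.03% had an unadjusted p under 0.05. The differences of the 16 member probes ran from -0.65 to 0.41 on the log2 scale, with a median of -0.16, against a median of -0.0036 over all tested probes. Of the 16, 12 had a lower mean in HDAC4 and 4 a higher one, while 50.6% of all probes had a lower mean. All 4 member probes at the floor on every array were among the 12, and 90.1% of the 202 other such probes were lower too. Of the 12 member probes not always at the floor, 8 were lower and 4 higher, with a median of -0.096. Standard errors of all 16 ran from 0.15 to 0.71.

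The probe for Actb, the beta-actin used in many laboratories as a loading control, had no value on any array. All 16 others had values on all 8 arrays. The 6 actin proteins are nearly identical, and probe sequences were not used here, so a probe may report more than the gene it is named for. In a whole culture, fewer cells of a type and less RNA per cell cannot be told apart.

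Skeletal actin is the main actin of adult muscle fibres. On the ACTA1 probe, HDAC4 replicates 1 to 4 had log2 ratios of 9.67, 8.74, 8.51 and 8.35, against 9.88, 8.89, 8.94 and 8.82 in Neo replicates 1 to 4. The replicate 1 arrays were the highest in both groups, and the groups overlapped because HDAC4 replicate 1 exceeded Neo replicates 2 to 4. Means were 8.81 ± 0.59 in HDAC4 and 9.13 ± 0.50 in Neo (SD, n = 4 each), a difference of -0.32 ± 0.33 (SE; limma adjusted p = 0.913). The HDAC4 minus Neo difference was negative in each of the 4 same-numbered pairs, between -0.48 and -0.15. Without both arrays numbered 1 the difference was -0.35 ± 0.12 (SE; limma adjusted p = 0.200) and the groups did not overlap. All 8 values were at the reference floor, and relative to the floor probes the sign turned, to 0.24 with all arrays and 0.14 without the arrays numbered 1. That step takes off the median of all 202 other floor probes, -0.56 with all arrays and -0.49 without those numbered 1. The 38 high ones had a median of -0.25 either way, a smaller fall than that of this probe. The turn therefore depends on which floor probes are used.

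Cardiac actin, the product of Actc1, is the main sarcomeric actin of embryonic muscle and of cultured myotubes. Its probe M300015463 read 9.88, 8.18, 8.14 and 8.21 in HDAC4 replicates 1 to 4, against 9.68, 8.78, 8.96 and 9.01 in Neo replicates 1 to 4. Apart from the replicate 1 arrays, which were the highest of their groups, every HDAC4 array lay below every Neo array. All 8 values were at the reference floor, where the cells' signal was 9451, 2925, 2869 and 3009 units in HDAC4 replicates 1 to 4 and 8302, 4421, 4998 and 5241 units in Neo replicates 1 to 4. With all arrays the means were 8.60 ± 0.85 in HDAC4 and 9.11 ± 0.40 in Neo (SD, n = 4 each), a difference of -0.50 ± 0.39 (SE; limma adjusted p = 0.888, exact two-sided permutation p = 0.400).

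Without both arrays numbered 1, Actc1 on this probe fell 1.67-fold in HDAC4, with means of 8.18 ± 0.034 in HDAC4 and 8.91 ± 0.12 in Neo (SD, n = 3 each). The log2 difference was -0.74 ± 0.10 (SE; limma adjusted p = 0.0210). It was the 1 member probe called in that comparison, where 2.26% of all 15397 tested probes were called, and an exact permutation test of 3 against 3 cannot go below 0.100. The pair numbered 1 went the other way, with HDAC4 higher by 0.19. The call did not hold with all 8 arrays and an indicator for the arrays numbered 1 in the fit (adjusted p = 0.242 in limma), where 0.645% of all probes were called. Of probes with a lower value in HDAC4, 1.51% of all tested were called without those arrays. Of the 38 high probes at the reference floor, 8 had a larger fall than this probe without the arrays numbered 1, and their median there was -0.25. Relative to the floor probes as a whole, the difference without those arrays was -0.25 (limma adjusted p = 0.266). With all arrays it was 0.050 there. Calls over all probes on that scale were 0.0% with all arrays and 1.83% without the arrays numbered 1.

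The second Actc1 probe, M300015464, gave 9.91, 8.81, 8.75 and 8.49 in HDAC4 replicates 1 to 4 and 9.34, 9.01, 9.12 and 9.25 in Neo replicates 1 to 4. HDAC4 replicate 1 was the highest of all 8 arrays and HDAC4 replicates 2 to 4 were the lowest, so the groups overlapped. Its mean difference was -0.19 ± 0.28 (SE; limma adjusted p = 0.944). Without both arrays numbered 1 it was -0.45 ± 0.13 (SE; limma adjusted p = 0.134), in the same direction as the first probe and smaller. Relative to the floor probes it was 0.37 with all arrays and 0.043 without the arrays numbered 1. The 3 striated actin probes, all at the floor on all 8 arrays, thus had differences of -0.32, -0.50 and -0.19, beside the median of -0.25 for other floor probes of like height, and between 12 and 21 of those 38 probes had a larger fall than each of them.

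**Figure D1:**
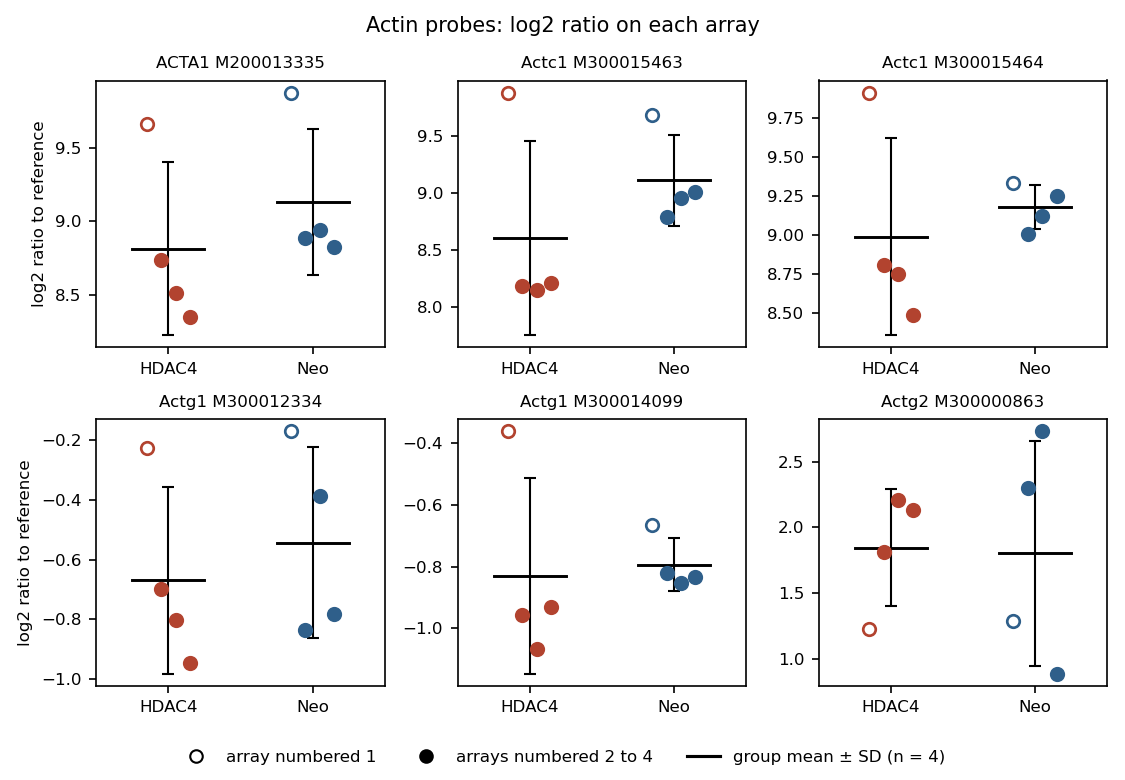
Log2 ratio to the reference (vertical axes, each with its own range) of the 6 measured actin probes on every HDAC4 and Neo array. Open circles are the arrays numbered 1, filled circles those numbered 2 to 4, and bars the group mean ± SD (n = 4). On the Actc1 probe M300015463, HDAC4 replicates 2 to 4 lie between 8.14 and 8.21, below all Neo arrays, while HDAC4 replicate 1 lies at 9.88.

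Cytoplasmic gamma-actin, the product of Actg1, is present in every cell and declines in share as myotubes mature. Probe M300012334 read -0.22, -0.70, -0.80 and -0.95 in HDAC4 replicates 1 to 4, against -0.17, -0.83, -0.39 and -0.78 in Neo replicates 1 to 4. The groups overlapped through most of their range, with a difference of -0.13 ± 0.21 (SE; limma adjusted p = 0.955). Probe M300014099 read -0.36, -0.96, -1.07 and -0.93 in HDAC4, against -0.66, -0.82, -0.85 and -0.83 in Neo, in the order of the replicates. Here HDAC4 replicate 1 was the highest array and HDAC4 replicates 2 to 4 the lowest, the same order as on the second Actc1 probe, with a difference of -0.036 ± 0.17 (SE; limma adjusted p = 0.980). No value of Actg1 was at the floor. The 2 probes gave the same difference of -0.15 without both arrays numbered 1, with limma adjusted p of 0.629 and 0.439.

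Actg2, the gamma-actin of enteric smooth muscle, had scattered values in Neo cells. Its probe M300000863 read 1.23, 1.81, 2.21 and 2.13 in HDAC4 replicates 1 to 4, against 1.29, 2.30, 2.73 and 0.89 in Neo replicates 1 to 4. The Neo arrays held both the highest and the lowest value. The difference was 0.044 ± 0.40 (SE; limma adjusted p = 0.994), or 0.079 ± 0.43 without both arrays numbered 1, and 4 of the 8 fits that left out 1 array gave it the opposite sign.

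Other probes list a mouse member gene together with a second gene ID and were kept out of the member set. M300010088, listed under both ACTA2 and Acta2, had means of 2.65 ± 0.10 in HDAC4 and 2.69 ± 0.50 in Neo (SD, n = 4 each). Its Neo replicate 1 value of 3.44 lay above the other 7 arrays, which were between 2.39 and 2.74. M300000862, listed under Actg2 with 2 IDs, had means of -0.28 ± 0.20 in HDAC4 and -0.43 ± 0.95 in Neo (SD, n = 4 each). Neither supports a statement about Acta2 or Actg2, since it is not known which listed gene the probe measures.

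Whether striated and cytoplasmic actins changed unequally was examined through the difference of their log2 ratios within each array. Both striated genes were at the reference floor on all 8 arrays and Actg1 on none, so the reference does not cancel in these differences. Actb could not serve, so Actg1 took its place, a choice made after the values were seen, and 3 pairs of genes were compared. Actc1 minus Actg1 was 10.2, 9.32, 9.38 and 9.29 in HDAC4 replicates 1 to 4, against 9.93, 9.72, 9.66 and 9.94 in Neo replicates 1 to 4. HDAC4 replicate 1 was again the highest and the other HDAC4 arrays were below all Neo arrays. The mean difference between the groups was -0.27, with an exact two-sided permutation p of 0.229 and 0.343 adjusted over the 3 pairs. ACTA1 minus Actg1 averaged 9.56 ± 0.29 in HDAC4 and 9.80 ± 0.34 in Neo (SD, n = 4 each; exact permutation p = 0.371, also 0.371 adjusted). Its difference was -0.24, and -0.20 without both arrays numbered 1. For Actc1 minus Actg1 it was -0.44 without both arrays numbered 1, where the groups did not overlap (exact permutation p = 0.100, the smallest for 3 against 3). Without HDAC4 replicate 1 alone, the only HDAC4 array not below all Neo arrays, it was -0.48. The exact permutation p was then 0.0286 before adjustment, the smallest for 3 against 4. Leaving out any other single array gave an exact permutation p of 0.229 to 0.429. Within same-numbered pairs, ACTA1 minus Actg1 was lower in HDAC4 in all 4, by differences of -0.34, -0.15, -0.12 and -0.34. The paired exact permutation p was 0.125, the smallest 4 pairs allow, and for Actc1 minus Actg1 it was 0.250, with a difference of 0.26 in the pair numbered 1. Relative to the floor probes both differences turned sign, to 0.32 for ACTA1 minus Actg1 and 0.29 for Actc1 minus Actg1. That step used the median of all 202 floor probes, -0.56. The 38 high ones had -0.25, close to the differences of -0.24 and -0.27 themselves, so no direction of an unequal change is given.

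Tpm1 encodes alpha-tropomyosin, the main form of fast skeletal and cardiac muscle, with several non-muscle splice forms. All 4 of its probes had a lower mean in HDAC4, with differences of -0.13, -0.29, -0.39 and -0.51, and none passed (limma adjusted p from 0.775 to 0.961). Their mean log2 ratios over the 8 arrays ranged from -2.66 to 2.39. The annotation gives the 4 probes the same accessions, so which splice forms each detects is not known here.

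Of these, M300008223 separated the groups. It read -0.78, -1.04, -0.97 and -0.83 in HDAC4 replicates 1 to 4, against -0.28, -0.75, -0.73 and -0.70 in Neo replicates 1 to 4. Every HDAC4 array was below every Neo array, with HDAC4 replicate 1 just under Neo replicate 2. The difference was -0.29 ± 0.15 (SE; limma adjusted p = 0.775) and the exact permutation test gave 0.0286, its minimum for groups of 4. The difference was -0.22 ± 0.10 without both arrays numbered 1 (SE; limma adjusted p = 0.298). It was the 1 probe of 16 whose groups did not overlap, 6.25% of the members, against 5.25% of all tested probes.

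The remaining Tpm1 probes were more scattered. M300008225 read 1.34, 2.90, 2.07 and 2.21 in HDAC4 replicates 1 to 4 and 2.58, 2.86, 2.67 and 2.46 in Neo replicates 1 to 4. HDAC4 replicate 2 was the highest array and the other HDAC4 arrays were the lowest, giving -0.51 ± 0.28 (SE; limma adjusted p = 0.807). Without the arrays numbered 1 that difference was -0.27. On M300008224 both arrays numbered 1 were the lowest of their groups, at -2.15 in HDAC4 and -2.34 in Neo, and the Neo arrays spread from -2.34 to -0.23. Its difference of -0.39 was -0.58 without those arrays. On M300008222 the HDAC4 arrays lay between -3.18 and -2.45 and the Neo arrays between -3.10 and -2.01, and its difference of -0.13 was -0.027 without the arrays numbered 1.

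Tpm2 encodes beta-tropomyosin, which pairs with alpha-tropomyosin in striated muscle. Its 3 probes had differences of 0.23, -0.067 and 0.41, and none passed (limma adjusted p from 0.875 to 0.972). M300006106 read 4.996, 5.76, 5.63 and 5.49 in HDAC4 replicates 1 to 4, against 5.27, 5.33, 5.45 and 4.91 in Neo replicates 1 to 4. HDAC4 replicates 2 to 4 were the 3 highest arrays and HDAC4 replicate 1 was among the lowest. M300006108 read 1.72, 2.79, 2.00 and 2.01 in HDAC4 and 2.34, 1.35, 1.35 and 1.86 in Neo, again in replicate order. Without both arrays numbered 1 the HDAC4 arrays were above all Neo arrays on both probes, with differences of 0.40 ± 0.16 and 0.75 ± 0.25 (SE; limma adjusted p = 0.252 and 0.182). On the third probe, M300006107, the groups were close, at 3.89 ± 0.082 in HDAC4 and 3.85 ± 0.058 in Neo without the arrays numbered 1 (SD, n = 3 each), a difference of 0.044.

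Tpm3 gives the alpha-tropomyosin of slow fibres and widespread non-muscle forms. Probe M300005849 had the widest range of all member probes, at 4.17, 7.12, 7.03 and 7.06 in HDAC4 replicates 1 to 4 and 5.53, 7.68, 7.12 and 7.65 in Neo replicates 1 to 4. The arrays numbered 1 were the lowest of their groups by more than 1.5 on the log2 scale, and HDAC4 was the lower array in all 4 same-numbered pairs. All 8 values were at the floor, and the difference was -0.65 ± 0.71 (SE; limma adjusted p = 0.923), or -0.41 ± 0.16 without the arrays numbered 1 (SE; limma adjusted p = 0.241). Probe M300005848 lay between -0.44 and 1.04 in HDAC4 and between 0.34 and 1.26 in Neo, with a difference of -0.30, or -0.14 without the arrays numbered 1. Probe M300005850 lay between 1.06 and 2.39 in HDAC4 and between 1.26 and 1.94 in Neo, with one of 0.064, or 0.15 without those arrays.

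**Figure D2:**
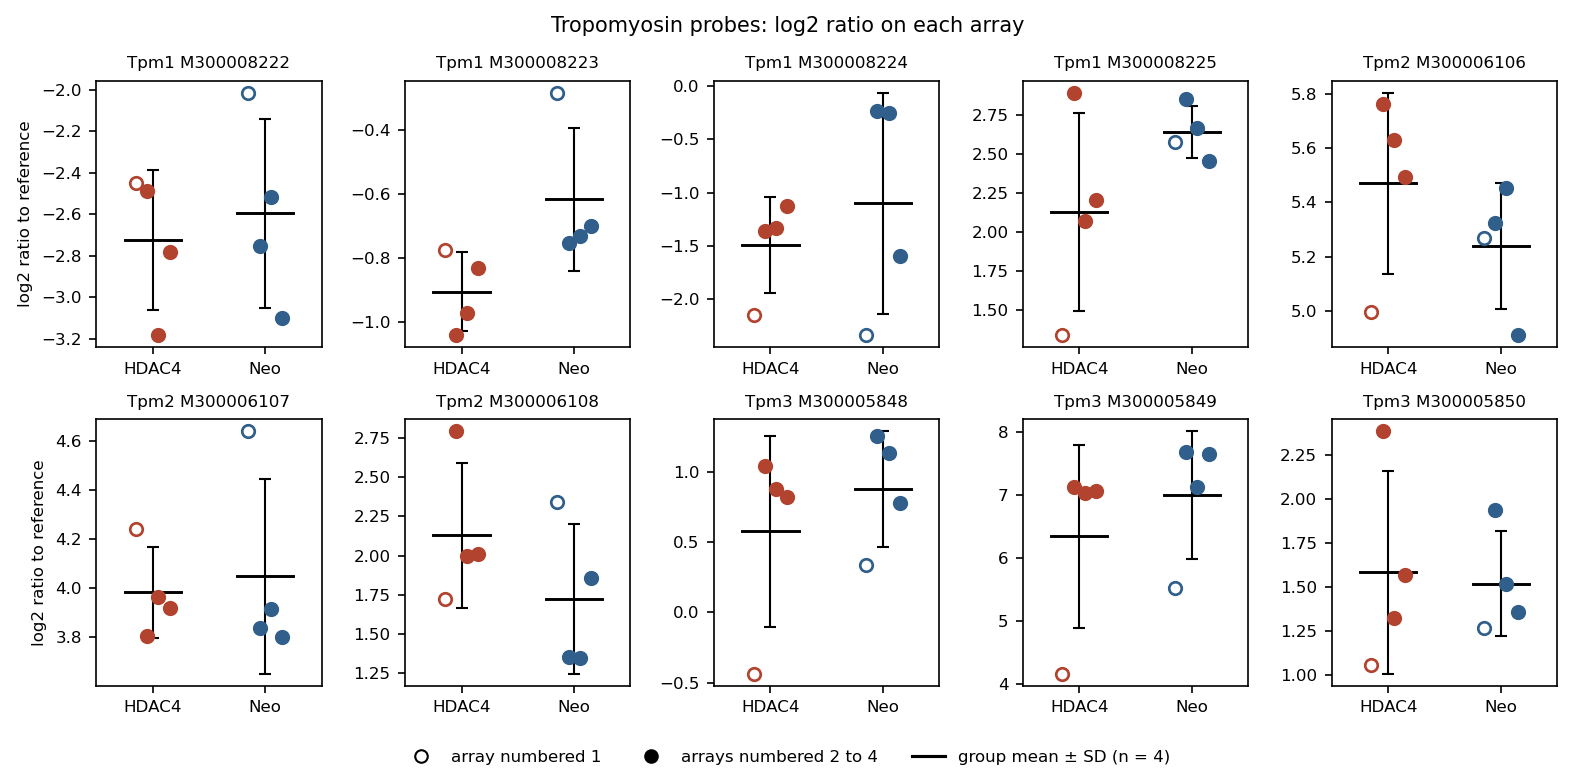
Log2 ratio to the reference (vertical axes, each with its own range) of the 10 tropomyosin probes on every HDAC4 and Neo array, drawn as for the actins with open circles for the arrays numbered 1 and bars for the group mean ± SD (n = 4). The groups separate on the Tpm1 probe M300008223 alone, and on the Tpm3 probe M300005849 both open circles lie below the other arrays, at 4.17 in HDAC4 and 5.53 in Neo.

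Tropomyosin genes were compared with each other within arrays in the same way. The planned Tpm2 minus Tpm4 could not be run, so Tpm1 took the place of Tpm4. That choice too was made after the values were seen, so the p-values describe a pair picked from these data. Tpm2 minus Tpm1, each the mean of its probes, was 4.66, 4.62, 4.72 and 4.44 in HDAC4 replicates 1 to 4, against 4.60, 3.72, 3.78 and 4.26 in Neo replicates 1 to 4. HDAC4 arrays were narrow at 4.61 ± 0.12 and Neo arrays wider at 4.09 ± 0.41 (SD, n = 4 each). The difference of 0.52 had an exact two-sided permutation p of 0.0571, and 0.171 adjusted over the 3 pairs, so it did not pass. The overlap came from Neo replicate 1, which lay above HDAC4 replicate 4. The difference was 0.67 without both arrays numbered 1, with no overlap (exact permutation p = 0.100). Without Neo replicate 1 alone, the array that made the overlap, it was 0.69. The exact permutation p was then 0.0286 before adjustment, the smallest for 4 against 3. Leaving out any other single array gave an exact permutation p of 0.0571 to 0.114. HDAC4 was higher in all 4 same-numbered pairs, by 0.066, 0.89, 0.94 and 0.18, with a paired exact permutation p of 0.125.

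**Figure D3:**
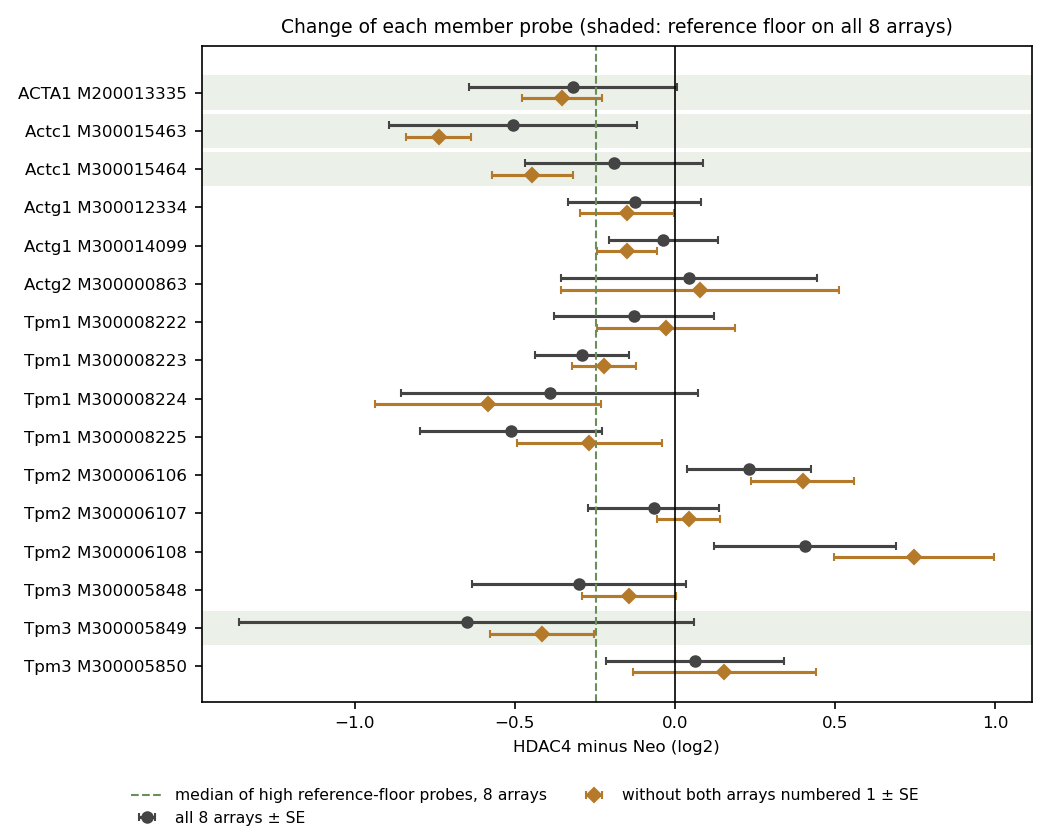
HDAC4 minus Neo difference (log2, horizontal axis) of the 16 tested member probes with its SE, from all 8 arrays (circles) and without both arrays numbered 1 (diamonds). Shading marks the 4 probes at the reference floor on all 8 arrays, and the dashed line at -0.25 is the median of 38 other floor probes of similar height. The diamond of the Actc1 probe M300015463 at -0.74 is the only one past the adjusted threshold.

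The arrays numbered 1 differed from the rest more than the groups differed from each other. In the fit with a term for them, 8 of the 16 member probes differed between the arrays numbered 1 and the other 6 at an adjusted p under 0.05 in limma, against 21.5% of all probes. The striated actins were higher on those arrays, by 1.06 for ACTA1 and by 1.23 and 0.72 for the Actc1 probes. The Tpm3 probe M300005849 was lower by 2.43 and M300005848 by 1.03. Probes of 1 gene could differ in direction, as for Tpm1, whose probe M300008224 was lower by 1.26 while M300008223 was higher by 0.31 without passing (adjusted p = 0.0969). Each probe's group difference without these arrays stands with its values above.

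Without both arrays numbered 1, the groups of 7 of the 16 probes did not overlap, 43.8% against 26.2% of all tested probes (13.6% lower and 12.6% higher). An unadjusted p under 0.05 in limma was found there for 6 of the 16, or 37.5%, against 18.2% of all. These 6 were all 4 probes at the floor on every array and 2 of the 12 others. Of the 7 without overlap, the 5 lower in HDAC4 were ACTA1, both Actc1 probes, Actg1 M300014099 and Tpm1 M300008223. The first 3 of these were at the floor on every array. The 2 higher were Tpm2 M300006106 and M300006108. All but 1 of the 7 failed the adjusted threshold there. Over the same-numbered pairs, 3 of the 16 probes were lower in HDAC4 in all 4 pairs, 18.8% against 11.0% of probes with 8 values, and none was higher in all 4, against 10.2%. The 3 lower ones were ACTA1, Tpm1 M300008223 and Tpm3 M300005849, and all but the Tpm1 probe were at the floor on every array. With the replicate number as a block, adjusted p of the member probes ran from 0.318 to 0.970 in limma, so the block called none. It called 9 of all 16748 probes, 0.0537%, where the fit without it called 21.

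**Figure D4:**
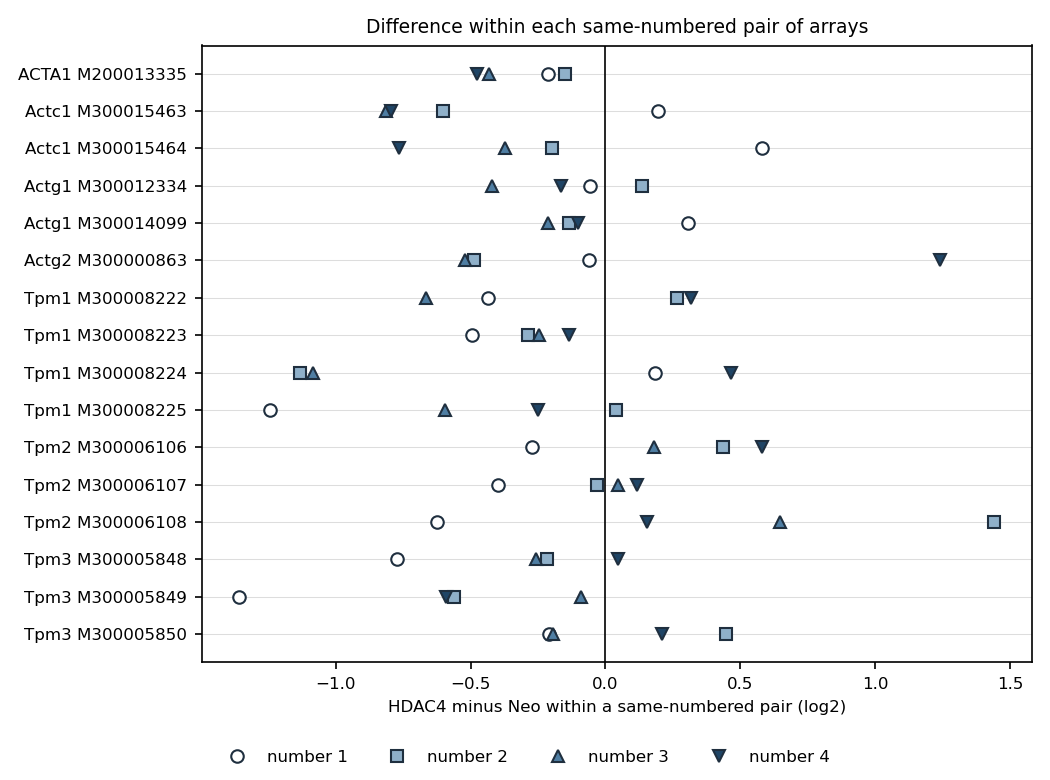
HDAC4 minus Neo difference (log2, horizontal axis) within each same-numbered pair of arrays for the 16 tested member probes. The shape of the marker gives the number of the pair, with open circles for number 1. On the Actc1 probe M300015463 the pair numbered 1 lies at 0.19 and the other pairs between -0.81 and -0.60, while the Tpm2 probe M300006108 runs from -0.62 for number 1 to 1.44 for number 2.

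Partners of the thin filament were read from lists of other genes. Of the troponins and the proteins that set or cap thin filament length, 11 of 17 genes could be tested with 13 probes, of which 11 had a lower mean in HDAC4 and none passed. Their median difference was -0.22, against -0.0036 over all probes, and for 11 of the 13 probes the floor held most values. Tmod1, which caps the pointed end of the thin filament, had the lowest p of the list, with means of 2.14 ± 1.81 in HDAC4 and 4.84 ± 0.21 in Neo (SD, n = 4 each; limma adjusted p = 0.351). Without both arrays numbered 1 it passed, with a difference of -3.38 ± 0.49 (SE; limma adjusted p = 0.0227), where 2.26% of all tested probes were called. It did not pass with an indicator for those arrays or with the replicate number as a block (limma adjusted p = 0.0884 and 0.174). Of its 8 values, 3 were at the floor. Lmod2, a nucleator of actin in striated muscle, had a difference of -0.69 ± 0.20 (SE; limma adjusted p = 0.403) and was at the floor on all 8 arrays.

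Genes of actin turnover and capping were balanced, with 10 of 20 probes lower, 10 higher, none passing and a median of 0.020. Those with the lowest p were Cfl2, the muscle cofilin that severs filaments, at -0.31 ± 0.16, and the barbed-end capping subunit Capzb at 0.69 ± 0.37 (SE; limma adjusted p = 0.778 and 0.792). Smooth muscle type contractile genes had 8 of 10 probes lower, none passing and a median of -0.22, led by Smtn at 0.38 ± 0.16 on one of its probes (-0.23 on another) and Cald1, an actin-binding regulator, at -0.30 ± 0.16 (SE; limma adjusted p = 0.697 and 0.788). Among SRF and its actin-regulated partners 1 of 6 probes passed, against 0.125% of all tested probes. Abra, a protein that binds actin and promotes SRF activity, fell 2.53-fold in HDAC4, with 4.89 ± 0.21 in HDAC4 and 6.23 ± 0.27 in Neo (SD, n = 4 each; limma adjusted p = 0.0292). All its values were at the floor, and relative to the floor probes its difference was -0.78 (limma adjusted p = 0.327). The coactivator Mrtfb had a difference of 0.37 ± 0.19 (SE; limma adjusted p = 0.785), with 3 HDAC4 values.

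The cultures were checked against markers. Of the myotube markers 7 of 9 genes could be tested, with 3 probes lower and 4 higher in HDAC4, a median difference of 0.023 and none passing, and for all 7 probes the floor held most values. The lowest p were those of Mb, the oxygen store myoglobin, at -0.91 ± 0.30, and Casq2, a calcium-binding protein of the sarcoplasmic reticulum, at -3.20 ± 1.38 from 3 HDAC4 values (SE; limma adjusted p = 0.526 and 0.710). Mb was at the floor on all 8 arrays and at -0.35 relative to floor probes. The mean deviation of the 7 myotube probes per array ran from -0.62 to 0.13 in HDAC4 and from -0.25 to 0.59 in Neo. Fibroblast markers had 4 of 5 probes higher in HDAC4, with a median of 0.51 (0.10 without the arrays numbered 1) and none passing, and a mean deviation from -0.044 to 0.60 in HDAC4 and from -0.71 to 0.19 in Neo. Thy1 had the lowest p of these, with a log2 ratio of -3.73 ± 0.11 in HDAC4 (SD, n = 3) and -5.03 ± 1.21 in Neo (SD, n = 4). It could not be tested without the arrays numbered 1. Pdgfra followed at -3.71 ± 1.06 in HDAC4 and -4.45 ± 0.44 in Neo (SD, n = 4 each). All 4 probes of cycling markers were higher in HDAC4 with a median of 0.19, led by Cdk1 at 0.38 ± 0.29 and Mcm5 at 0.22 ± 0.34 (SE), and none passed. Myoblast markers had 4 of 5 probes lower, with a median of -0.25, led by Myf5 at -0.40 ± 0.22 from 3 HDAC4 values and Itga7 at -0.36 ± 0.21 (SE). Myf5 could not be tested without the arrays numbered 1. The second Itga7 probe was at 0.21, the list's median without the arrays numbered 1 was 0.035, and relative to floor probes Myf5 and the first Itga7 probe were at 0.16 and 0.19. There were 3 probes of the smooth muscle markers Smtn and Actg2, of which 1 was lower, with a median of 0.044. None passed in either list. Liver is the stated source of the reference, and none of the 5 liver genes with a probe had enough values to be tested. The part of these markers in the actin and tropomyosin values was not tested.

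Outside the family, the named probes whose pattern over the 8 arrays was most like that of the ACTA1 probe were those of Zfyve21, Diablo and Phf1, out of 9556 compared. Since the arrays numbered 1 form a cluster of their own, Pearson's r is given over the other 6 arrays, where it was 0.938, 0.866 and 0.860. These points share arrays and scaling, and the values are a description.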

How the data were processed

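RNA of 4 HDAC4 and 4 Neo samples was measured on 2-colour arrays, deposited by the authors as log2 ratios. Per the labels, cells carried Cy5 and the reference Cy3, with no dye swap. No label or header read here names the scanner software, normalization or filters. The deposited medians, 0.00576 to 0.0286, were subtracted from each array. The number of arrays limits the precision.

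Probes were named from the platform annotation, with symbols updated through the RefSeq gene table of GRCm38.p6, and 18976 probes named 1 gene, 404 several, and 12389 are unnamed here. A probe needed at least 3 values in each group. HDAC4 was compared with Neo in limma 3.58.1 (R 4.3.3, lmFit and eBayes) with Benjamini-Hochberg adjustment over all 16748 tested probes at 0.05. Each probe was a feature, since probes of a gene differ in level and in missing values. The fit was tested on simulated data. These had independent noise on each array and no common shift of the arrays numbered 1, so they do not bear on that shift. Exact permutation tests were two-sided. A value was taken to be at the reference floor where 10 times the ratio was at least 10 and whole within 0.001.

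Members and lists were chosen with earlier results of these data known. The text names every member probe and, of each other list, the genes with the 2 lowest p and those past the threshold. A gene passing only without the arrays numbered 1 is named as well. Planned comparisons with Actb, Acta2 and Tpm4 could not be run, because no member probe of these genes had a value.

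Replicate numbers come from the sample titles. Across probes, the deviations from the group means of arrays that share a number correlated at 0.531, 0.309, 0.208 and 0.115 for numbers 1 to 4. All exceed 0.1, which was the limit for pairing, and differently numbered pairs without number 1 correlated at 0.0663 to 0.266. HDAC4 replicates 3 and 4 correlated more with Neo replicate 2, at 0.224 and 0.266, than with the Neo array of their own number. Passing the limit therefore does not show that these arrays were made as pairs. Alternatives covered pairing, the arrays numbered 1, scaling, missing values, gene means, the floor and left-out arrays.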

Additional observations from a re-analysis of the deposited data

Results flagged for a closer look

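A sample far from the other 3 of its group was found for 6 of 32 groups of 4 arrays, by Dixon's gap test. Chance flags about 1 in 20 groups, and all 6 values came from an array numbered 1. On the ACTA1 probe, Neo replicate 1 stood at 9.88, against 8.82 to 8.94 for the other Neo arrays. On the Actc1 probe M300015463, HDAC4 replicate 1 stood at 9.88, against 8.14 to 8.21. The Tpm1 probe M300008223 had -0.28 in Neo replicate 1, against -0.75 to -0.70, and the Tpm2 probe M300006107 had 4.64 in Neo replicate 1, against 3.80 to 3.91. For Tpm3, HDAC4 replicate 1 was low on both M300005848, at -0.44 against 0.82 to 1.04, and M300005849, at 4.17 against 7.03 to 7.12.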

How the results depend on the processing

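Under 21 alternatives the 16 member probes gave 332 values, of which 304 kept both direction and side of the threshold, 27 changed sign and 1 passed the threshold. In these counts a gene mean was entered again for each probe of its gene. The 1 call was Actc1 M300015463 without both arrays numbered 1, so the count of called members was 1 there and 0 under the other 20. The count over all probes was 21 as reported, 348 without both arrays numbered 1 and 282 when taken relative to floor probes as well, an alternative chosen after seeing the data. It was 108 with replicate 1 as a term, 9 with the replicate block, 1 with floor values missing and 0 relative to floor probes (1120 at an unadjusted p under 0.05 in limma). Leaving out 1 array gave 0 to 88, with 88 without HDAC4 replicate 1, 74 without Neo replicate 1 and 0 without Neo replicate 2, 3 or 4, where 915, 957 and 936 probes had an unadjusted p under 0.05 in limma. The replicate block changed no call of a member probe.

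Relative to the median of all 202 floor probes the sign turned for ACTA1 (0.24) and for both Actc1 probes (0.050 and 0.37). The 38 high floor probes fell less, at a median of -0.25 against -0.56, and that median was not used for the step. With the step and without the arrays numbered 1 the sign turned for ACTA1 (0.14), Actc1 M300015464 (0.043), Tpm3 M300005849 (0.074) and Tpm2 M300006107 (0.044). Tpm2 M300006107 also turned without those arrays alone (0.044) and with floor values missing (0.13). Under both kinds of gene means the mean of the Tpm2 probes was 0.19, opposite in sign to M300006107. The mean of the Tpm3 probes was -0.30, opposite in sign to M300005850. Leaving out 1 array gave -0.19 to 0.044 for Actg1 M300014099, -0.26 to 0.35 for Actg2, -0.30 to 0.065 for Tpm1 M300008222, -0.15 to 0.13 for Tpm2 M300006107, and -0.48 to 0.037, -1.14 to 0.075 and -0.20 to 0.24 for Tpm3 M300005848, M300005849 and M300005850. None of these 27 values passed the threshold. Relative to floor probes, added after seeing the data, ACTA1 minus Actg1 turned to 0.32 and Actc1 minus Actg1 to 0.29. The cause was not tested. The reference floor limits what the highest probes can show about the reference, and 4 arrays a group limit all.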
